A study of Mus musculus with 12 samples.

Results

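The nuclear pore complex and the receptors that carry cargo through it were described as a group of 44 genes, out of 28643 gene symbols measured in mouse round spermatids. The members were all symbols of the deposited table that begin with Kpna, Kpnb, Xpo, Tnpo, Ipo followed by a digit, or Nup followed by a digit. The name alone decided membership, with no filter on a measured value. Earlier results of these data were known when the members were chosen. They comprised 6 importin alpha genes, 8 genes of importin beta and other importins, 3 transportins, 6 exportins and 21 nucleoporins of the Y complex, the inner ring, the central channel, the cytoplasmic face, the nuclear basket and the membrane ring.

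The nuclear pore is the only passage for large molecules between nucleus and cytoplasm. Importin alpha proteins recognise a nuclear localisation signal and dock onto importin beta, which passes the pore by binding the phenylalanine-glycine repeats of nucleoporins and releases its cargo when Ran in its GTP form binds. Exportins work in the reverse direction and bind cargo together with Ran-GTP. In spermatids this traffic must bring transition proteins and protamines into a nucleus that is being condensed and carry RNA out, and the germ line is known to switch between importin alpha genes as it matures.

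Round spermatids were sorted by flow cytometry, with cycloheximide present throughout, from 8-week-old males. Control males carried one disrupted allele of Igf2bp3 (Igf2bp3+/-), knockout males carried both (Igf2bp3-/-), and no wild-type group was analysed here, although the table heads the columns of the control libraries WT. The disrupted allele is a frameshift made with Cas9 in zygotes, so that it is not limited to spermatids, and IGF2BP3 is a reader of m6A-modified RNA. By the methods, knockout males with impaired fertility were used, so the Igf2bp3-/- group does not stand for all knockout males. Each extract gave total input for RNA-seq and a polysome fraction, mRNAs with 4 or more ribosomes, for RNC-seq, with 3 replicates of each genotype in each assay and 12 libraries in all.

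Values are FPKM, a read density corrected for transcript length and library size, so that levels can be compared between genes. Igf2bp3 itself was listed at 33.4 to 38.6 FPKM in Igf2bp3+/- and 31.4 to 32.5 FPKM in Igf2bp3-/- RNA-seq, without overlap. In RNC-seq it was at 31.4 to 43 FPKM in Igf2bp3+/- and 40.6 to 43.1 FPKM in Igf2bp3-/-, with overlap. A frameshift need not lower a transcript, so that this level does not check the genotype. Markers of round spermatids summed to 658 to 768 FPKM in Igf2bp3+/- and 860 to 991 FPKM in Igf2bp3-/- RNA-seq. In RNC-seq their sums were 802 to 940 FPKM and 942 to 1290 FPKM. Over all RNA-seq libraries, spermatocyte markers summed to 71.4 to 109 FPKM and Sertoli markers to 6 to 11.8 FPKM. Markers of elongating spermatids, the next stage, summed to between 9383 and 12082 FPKM in RNA-seq. Prm1, Prm2, Tnp1 and Tnp2 are among them, and the paper measured their mRNA in sorted round spermatids, so this sum does not measure elongating cells. The Leydig cell markers, led by Insl3, were higher in the knockout, with sums of 15.4 to 22.6 FPKM in Igf2bp3+/- and 48.6 to 55 FPKM in Igf2bp3-/- RNA-seq, and of 6.75 to 14.3 FPKM and 51.5 to 103 FPKM in RNC-seq. In RNA-seq the Sertoli markers summed to 6 to 7.34 FPKM in Igf2bp3+/- and 11.7 to 11.8 FPKM in Igf2bp3-/-, and the macrophage markers to 2.24 to 2.44 FPKM and 4.88 to 5.37 FPKM. The deepest library was replicate 1 of Igf2bp3-/- RNA-seq, judged by the smallest steps in its values, and the others had 0.38 to 0.55 of its depth, while absolute depth is unknown. The 44 members together took 0.384% to 0.456% of the summed FPKM of an RNA-seq library and 0.219% to 0.32% of an RNC-seq library, with the highest RNC-seq share in Igf2bp3-/- replicate 2, a library that stands apart in these genes.

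Promoter windows were looked up in RefSeq sequence of GRCm38.p6, which holds 35 of the 44 members. They were searched on both strands for TGACGTCA, the cyclic AMP response element bound by CREM, an activator of gene expression in round spermatids, and for its half-site TGACG, which every full site also contains. Windows ran from 250 bases before to 50 bases after a start. The full site was found for 2 of 35 members, Nup133 and Nup214, and for 2.03% of all genes with a window (1.79% of windows). The half-site was found for 15 of 35 members, and for 23% of all genes (20.8% of windows). A match describes these letters and does not show that a factor binds. The sequences below are shown because they hold the full sites, together with the half-site before Ipo5, the member with the highest RNA level. They read 5′ to 3′ on the strand of the gene, with the site in capitals, and they lie before the start, at chr8:123949305-123949352 and chr8:123949362-123949409 (minus strand) for Nup133, at chr2:31974386-31974433 (plus strand) for Nup214 and at chr14:120910944-120910981 (plus strand) for Ipo5.
Nup133, site nearer the start: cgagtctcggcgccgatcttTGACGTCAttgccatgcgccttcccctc
Nup133, site farther from the start: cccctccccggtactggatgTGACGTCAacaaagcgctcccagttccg
Nup214: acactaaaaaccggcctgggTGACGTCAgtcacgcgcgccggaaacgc
Ipo5: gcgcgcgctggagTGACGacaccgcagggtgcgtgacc

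Levels in total RNA spanned more than 3 orders of magnitude. In Igf2bp3+/- RNA-seq, 5 members had a mean above 100 FPKM, 16 lay between 10 and 100, 19 between 1 and 10, and 4 at or below 1. No member was listed at 0 in any library. Of the 43 pairs of neighbours in the order of means, 30 had overlapping library ranges and do not differ beyond their spread. Values per library are given below in the order of replicates 1, 2 and 3.

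A few import receptors held almost all of the importin RNA. Ipo5, an importin for ribosomal proteins and histones, had the highest level of all members, at 357, 375 and 449 FPKM in Igf2bp3+/- and 329.8, 368 and 379 FPKM in Igf2bp3-/- RNA-seq. Kpna2, an importin alpha, came next at 247, 275 and 265 FPKM in Igf2bp3+/- and 288, 329.5 and 367 FPKM in Igf2bp3-/-. Its ranges did not overlap with those of Ipo5 above it or of Ipo4 below it in Igf2bp3+/-. Ipo4, an importin for histones, was at 190.1, 221 and 218 FPKM in Igf2bp3+/- RNA-seq, although 55.3% of its exonic bases are shared with the readthrough gene Gm49378 on the same strand. Kpna6, a further importin alpha, followed at 113, 111 and 119 FPKM, and its range overlapped with that of Ipo13, which carries cargo both ways and reached 98.3, 117 and 116 FPKM. Together, Ipo4, Ipo5 and Ipo13 made up 96.6% to 97.4% of the summed FPKM of the 8 genes of importin beta and other importins in the 6 RNA-seq libraries.

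Among the 6 importin alpha genes, Kpna2 and Kpna6 made up 95.7% to 97% of the summed FPKM in RNA-seq and 97.5% to 98.4% in RNC-seq. Kpna4 was at 9.48, 8.61 and 9.85 FPKM in Igf2bp3+/- and 11.2, 9.85 and 8.88 FPKM in Igf2bp3-/- RNA-seq. Kpna1 was at 5.16, 5.11 and 5.22 FPKM in Igf2bp3+/- and 4.6, 4.44 and 5.25 FPKM in Igf2bp3-/-. Kpna3 lay at 0.778, 1.17 and 1.22 FPKM in Igf2bp3+/- and 1.44, 1.37 and 1.09 FPKM in Igf2bp3-/-. Kpna7, known as an importin alpha of oocytes and early embryos, was lowest at 0.762, 0.649 and 0.572 FPKM in Igf2bp3+/- and 0.471, 0.664 and 0.623 FPKM in Igf2bp3-/-. Kpna2 thus exceeded Kpna1 by 47.8-fold to 74.2-fold within the RNA-seq libraries. Kpna2 has near-identical copies in the genome, of which Gm10184 was listed at 22.7 to 40.8 FPKM and Gm10259 at 8.34 to 21.5 FPKM, so reads could have been split between them and its level is uncertain to that extent.

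The general import and export receptors were low. Kpnb1, the importin beta that pairs with importin alpha, was at 4.28, 4.39 and 4.17 FPKM in Igf2bp3+/- and 4.67, 4.35 and 4.93 FPKM in Igf2bp3-/- RNA-seq. Xpo1, the exportin for leucine-rich export signals, was at 2.16, 2.58 and 2.2 FPKM in Igf2bp3+/- and 2.45, 1.94 and 1.86 FPKM in Igf2bp3-/-. Ipo4 and Ipo13 were at 206, 217 and 213 FPKM and at 101, 119 and 104 FPKM in Igf2bp3-/- RNA-seq. The exportin with the highest level was Xpo6, which exports profilin-bound actin, at 74.1, 91.2 and 84.4 FPKM in Igf2bp3+/- and 73.9, 70.8 and 55.1 FPKM in Igf2bp3-/-. Xpo6 exceeded Xpo1 by 29.5-fold to 38.4-fold within the RNA-seq libraries and made up 59.7% to 69.2% of the summed FPKM of the 6 exportins. The remaining exportins, Xpo5 for precursor microRNAs, Xpot for tRNA, Xpo4 and Xpo7, had means of 19.6, 9.97, 7.9 and 0.832 FPKM in Igf2bp3+/-. Tnpo1, the transportin for proline-tyrosine signals, was at 19.5, 20.1 and 20.9 FPKM, Tnpo3, which imports SR splicing factors, had a mean of 4.29 FPKM, and Tnpo2 one of 3.5 FPKM. The other importins, Ipo11, Ipo9 and Ipo7, had means of 6.81, 6.46 and 4.44 FPKM, and Ipo8 one of 0.255 FPKM.

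The nucleoporins, which the pore holds in fixed proportions as proteins, were uneven in RNA level. In the membrane ring, Nup210l, the testis paralogue of Nup210, was at 55.4, 59.2 and 73.8 FPKM in Igf2bp3+/- and 61.5, 64.9 and 52.9 FPKM in Igf2bp3-/- RNA-seq. Nup210 was at 0.811, 0.798 and 1.23 FPKM in Igf2bp3+/- and 0.846, 0.827 and 0.801 FPKM in Igf2bp3-/-. The paralogue exceeded it by 60.1-fold to 78.5-fold in RNA-seq and by 28.1-fold to 56.9-fold in RNC-seq. In the central channel, Nup62 was at 66.2, 72.6 and 75.4 FPKM in Igf2bp3+/- and 66.3, 79.4 and 82.4 FPKM in Igf2bp3-/-. Nup98, whose transcript encodes a precursor that is cut into the channel protein NUP98 and the Y complex protein NUP96, was at 45.9, 55.1 and 64.0 FPKM in Igf2bp3+/- and 52.1, 52.9 and 38.5 FPKM in Igf2bp3-/-. The channel gene Nup54 was far lower at a mean of 1.28 FPKM, and the Nup62 relative Nup62cl on the X chromosome at 1.49 FPKM.

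In the inner ring, Nup205, Nup188 and Nup35 had Igf2bp3+/- means of 82.0, 75.1 and 55.4 FPKM, whereas Nup155 and Nup93 had means of 4.25 and 1.82 FPKM. The Y complex, the outer scaffold, ranged from 19.3 FPKM for Nup133 and 18.3 for Nup37 through 12.6 for Nup43, 9.16 for Nup160 and 8.49 for Nup107 to 4.4 for Nup85. Nup107 was at 7.73, 8.64 and 9.11 FPKM in Igf2bp3+/- and 7.82, 9.07 and 8.55 FPKM in Igf2bp3-/- RNA-seq. On the cytoplasmic face, Nup88 had a mean of 72.5 FPKM, and Nup214 was at 39.6, 47.6 and 50.5 FPKM in Igf2bp3+/- and 42.5, 41.0 and 38.0 FPKM in Igf2bp3-/-. In the nuclear basket, Nup50 had a mean of 48.4 FPKM, and Nup153 was at 26.8, 30.7 and 32.2 FPKM in Igf2bp3+/- and 26.3, 23.4 and 18.7 FPKM in Igf2bp3-/-.

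**Figure D1:**
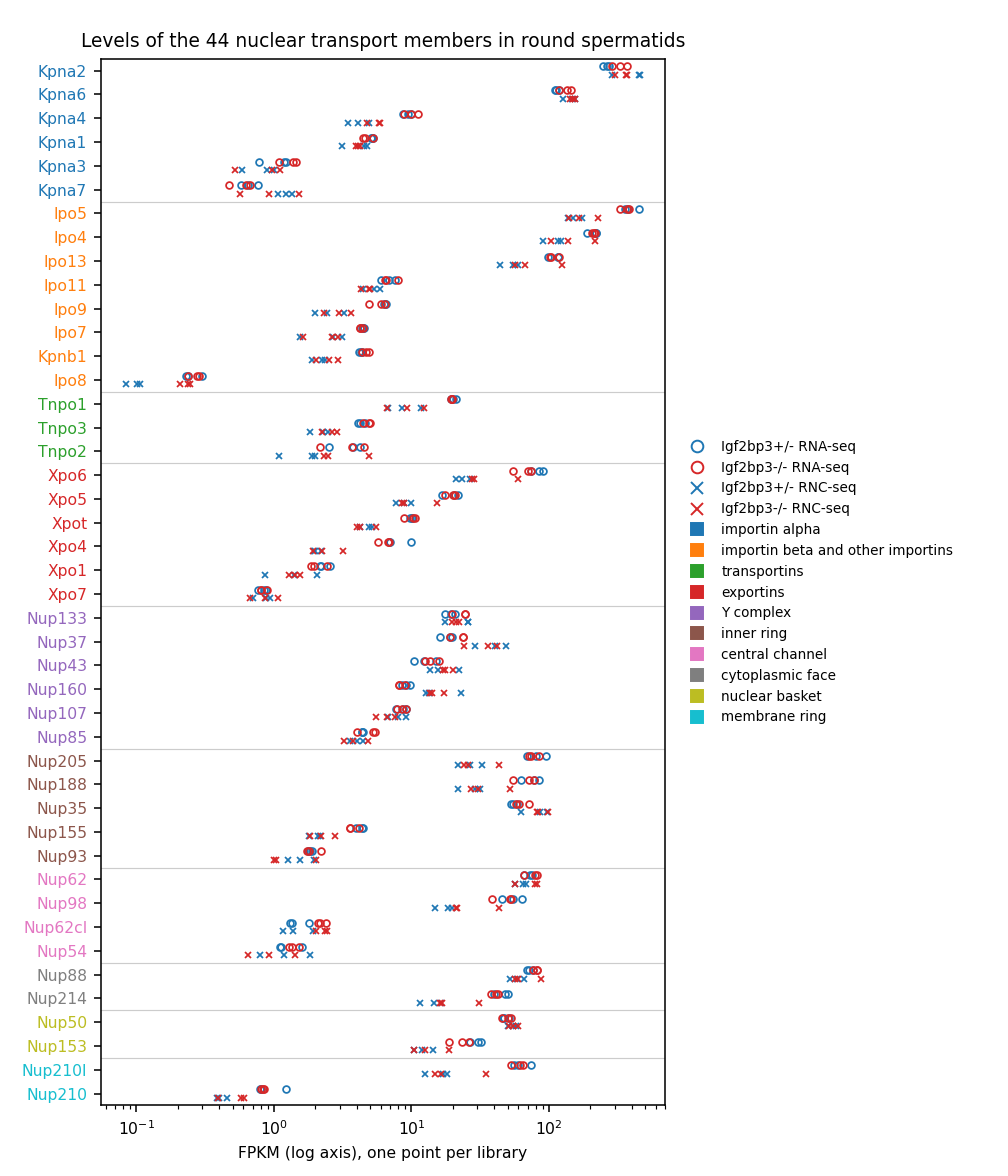
FPKM of each of the 44 members on a log axis, with 1 point per library, circles for RNA-seq, crosses for RNC-seq, blue for Igf2bp3+/- and red for Igf2bp3-/-. Members are ordered by role, named by the colour of their label, and Kpna2, Xpo6 and Nup210l are the highest of their role in all 12 libraries, as Ipo5 is, although Ipo4 comes close to Ipo5 in Igf2bp3-/- RNC-seq replicate 2 at 217 against 226 FPKM.

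Polysome loading compares a gene's level in polysomal RNA with its level in total RNA. Each level is relative to the rest of its library, so loading does not give the fraction of a gene's RNA on polysomes. It was taken as log2(FPKM + 0.1) in RNC-seq minus that in RNA-seq and tested with limma over all genes within a genotype. In Igf2bp3+/-, 22 of the 43 members tested were lower on polysomes than in total RNA and 5 were higher, at an adjusted p under 0.05. Over all 17942 genes tested, 25.1% were lower and 18.6% higher. The median log2 change was -0.88 for the members and -0.09 for all genes. FPKM was also rescaled without CT010467.1, a transcript that alone took 5.68% to 19.4% of a library. This rescaling brought the remaining FPKM of every library to the same sum as well. Before it, summed FPKM lay between 459762 and 509397 in RNA-seq and between 555464 and 624792 in RNC-seq libraries. After both steps 27 members were lower and 2 higher, and the median of all genes moved from -0.09 to -0.28. The parts of the 2 steps in this shift were not separated. Ipo8 was below the limit of 0.1 FPKM in RNC-seq and was not tested in Igf2bp3+/-.

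The lowest loading was that of Nup210l, at 12.6, 17.0 and 18.2 FPKM in Igf2bp3+/- RNC-seq. Every one of these lay below every RNA-seq library, and the log2 change was -1.98 ± 0.18 (SE, n = 3 per assay), with an adjusted p of 0.000102 in limma. Xpo4, an exportin for the translation factor eIF5A, was at 6.97, 6.84 and 9.89 FPKM in RNA-seq and 1.96, 1.98 and 2.2 FPKM in RNC-seq, a log2 change of -1.88 ± 0.19 with an adjusted p of 0.000166. Xpo6 was at 21.2, 23.4 and 26.6 FPKM in RNC-seq, a log2 change of -1.80 ± 0.14 with an adjusted p of 6.11e-05. The groups did not overlap for either exportin.

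Long nucleoporins of the channel, the cytoplasmic face and the inner ring were low in the same way. Nup214 was at 11.4, 16.3 and 14.5 FPKM in Igf2bp3+/- RNC-seq (log2 -1.70 ± 0.17). Nup98 was at 14.9, 18.4 and 19.7 FPKM (log2 -1.63 ± 0.17). Nup205 was at 69.8, 80.6 and 95.7 FPKM in RNA-seq and 22.0, 26.7 and 32.5 FPKM in RNC-seq (log2 -1.60 ± 0.18). All of these were called by limma, with adjusted p of 0.000143, 0.000171 and 0.00024. Nup188 was at 62.9, 78.1 and 84.3 FPKM in RNA-seq and 21.7, 29.1 and 31.3 FPKM in RNC-seq (log2 -1.46 ± 0.17, adjusted p = 0.000337 in limma). Ipo5 was at 137, 149.7 and 175 FPKM in RNC-seq (log2 -1.36 ± 0.14, adjusted p = 0.000179 in limma), so that its RNC-seq mean was 0.391 of its RNA-seq mean. Ipo4 and Ipo13 were lower too, with log2 changes of -0.94 ± 0.14 and -1.07 ± 0.15 and adjusted p of 0.00106 and 0.000619 in limma. Ipo4 was at 90.5, 123 and 116 FPKM in Igf2bp3+/- RNC-seq and Ipo13 at 44.2, 59.2 and 55.2 FPKM. In Igf2bp3-/- RNC-seq they were at 137, 217 and 104 FPKM and at 67.0, 124 and 56.7 FPKM, with replicate 2 the highest, and neither passed there.

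The members higher on polysomes were short, with the exception of Nup160. Nup37, a small Y complex subunit, was at 19.0, 19.7 and 16.2 FPKM in RNA-seq and 48.6, 28.9 and 40.7 FPKM in RNC-seq, a log2 change of 1.08 ± 0.19 with an adjusted p of 0.00246 in limma. Kpna7 was at 1.22, 1.34 and 1.07 FPKM in RNC-seq (log2 0.79 ± 0.23). Nup160, the largest Y complex subunit among the members, was at 9.84, 8.58 and 9.06 FPKM in RNA-seq and 22.9, 12.8 and 13.3 FPKM in RNC-seq (log2 0.78 ± 0.22). Both were called, with adjusted p of 0.0214 and 0.0203 in limma, and for both the RNC-seq libraries lay above all RNA-seq libraries. Kpna2 was at 453, 288 and 456 FPKM in RNC-seq (log2 0.58 ± 0.18, adjusted p = 0.0303 in limma). Nup35 was at 54.6, 58.4 and 53.2 FPKM in RNA-seq and 97.3, 63.0 and 85.9 FPKM in RNC-seq (log2 0.54 ± 0.17, adjusted p = 0.0268 in limma). The calls of Kpna2, Nup35, Nup160 and Kpna7 were lost when replicate 1 or 3 was left out, and Nup35 shares 3.89% of its exonic bases with Dusp19 and has the near-identical copy Gm4353.

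By role, all 3 transportins, 6 of 7 importins of the beta type and 4 of 6 exportins were lower on polysomes in Igf2bp3+/-. So were 3 of 5 inner ring genes and both membrane ring genes. Of all genes 25.1% were lower, and of all genes with a coding length over 2500 bases 67.2%. Except for Nup35 and Nup93, the members of these roles are that long, so the counts do not mark out a role. In the Y complex none of the 6 members was lower, with a median log2 change of 0.34. Nup98, counted here with the central channel, also encodes the Y complex protein NUP96 and was lower. Of Y complex genes outside the naming rule, Seh1l (log2 -1.14) and Ahctf1 (-1.91) were lower and Sec13 (0.62) was higher. Their adjusted p in limma were 0.00635, 8.34e-05 and 0.00428. Among importin alpha genes only Kpna4 was lower. Kpna4 was at 4.94, 4.06 and 3.45 FPKM in Igf2bp3+/- RNC-seq (log2 -1.16 ± 0.17, adjusted p = 0.000933 in limma), while its coding length of 1563 bases is close to that of the other importin alpha genes. Kpnb1 was at 2.23, 1.89 and 2.35 FPKM (log2 -0.96 ± 0.17, adjusted p = 0.00205 in limma). Nup153 was at 11.9, 10.4 and 14.5 FPKM (log2 -1.29 ± 0.16, adjusted p = 0.000373 in limma). Xpo1 was at 1.39, 0.86 and 2.04 FPKM, and its log2 change of -0.73 ± 0.29 did not pass. Nup62 at 56.6, 68.1 and 64.8 FPKM, Nup107 at 8.02, 6.74 and 9.06 FPKM, Kpna1 at 4.76, 3.15 and 4.53 FPKM and Kpna3 at 0.587, 0.896 and 0.994 FPKM did not pass either, with log2 changes of -0.18, -0.10, -0.33 and -0.33. Kpna6, at 147, 127 and 154 FPKM in RNC-seq, missed the limit at a log2 change of 0.32 ± 0.12 (adjusted p = 0.056 in limma). Nup210 was lower, at 0.398, 0.385 and 0.458 FPKM (log2 -1.0 ± 0.26, adjusted p = 0.0146 in limma), and besides Tnpo1 and Xpot, whose values follow with those of Igf2bp3-/-, the 6 other lower members were Ipo9 (-1.33), Xpo5 (-1.13), Tnpo2 (-1.04), Nup155 (-1.04), Tnpo3 (-0.94) and Ipo7 (-0.88) on the log2 scale. The call of Tnpo2 was lost without replicate 2 (log2 -0.72, adjusted p = 0.104 in limma) and without replicate 3 (log2 -1.0, adjusted p = 0.0851 in limma).

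In Igf2bp3-/-, 15 of the 44 members were lower on polysomes and 1 was higher. Over all 18456 genes tested, 10.9% were lower and 10.1% higher in that genotype. The median log2 change was -0.54 for the members and -0.04 for all genes. Rescaled without CT010467.1, 19 members were lower and 1 higher, and the median of all genes was -0.22. With the replicate number as a block, 18 were lower and 1 higher. The lower calls were led by Nup210l at 16.3, 34.7 and 14.9 FPKM in RNC-seq (log2 -1.54 ± 0.29, adjusted p = 0.00829 in limma). Xpo4 was at 6.75, 5.7 and 6.85 FPKM in RNA-seq and 2.22, 3.15 and 1.93 FPKM in RNC-seq (log2 -1.39 ± 0.22, adjusted p = 0.00488 in limma). Nup205 was at 73.6, 85.3 and 72.2 FPKM in RNA-seq and 25.8, 43.3 and 24.1 FPKM in RNC-seq (log2 -1.35 ± 0.23, adjusted p = 0.00568 in limma). For each of these the RNC-seq libraries lay below all RNA-seq libraries, with replicate 2 the highest on polysomes.

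Xpot was at 8.77, 10.7 and 10.2 FPKM in Igf2bp3-/- RNA-seq and 4.02, 5.53 and 4.24 FPKM in RNC-seq (log2 -1.10 ± 0.19, adjusted p = 0.00651 in limma). Tnpo1 was at 19.7, 19.5 and 19.7 FPKM in RNA-seq and 9.31, 12.4 and 6.59 FPKM in RNC-seq (log2 -1.10 ± 0.23, adjusted p = 0.0115 in limma). Ipo5 was at 166, 226 and 141 FPKM in RNC-seq (log2 -1.04 ± 0.20, adjusted p = 0.00794 in limma). All 3 were also lower in Igf2bp3+/-, where Xpot reached 9.69, 10.1 and 10.1 FPKM in RNA-seq and 4.19, 4.89 and 5.17 FPKM in RNC-seq, and Tnpo1 reached 6.79, 11.7 and 8.49 FPKM in RNC-seq. Nup214 was at 16.6, 30.9 and 16 FPKM (log2 -1.0 ± 0.25, adjusted p = 0.0213 in limma) and Nup188 at 71.8, 78.0 and 55.2 FPKM in RNA-seq and 30.5, 52.2 and 27.3 FPKM in RNC-seq (log2 -0.94 ± 0.25, adjusted p = 0.029 in limma). The other lower members in Igf2bp3-/- were Ipo9 (-0.94), Kpnb1 (-0.89), Xpo5 (-0.87), Tnpo3 (-0.86), Ipo7 (-0.85), Kpna4 (-0.85) and Nup155 (-0.72) on the log2 scale. The member called higher was Nup160, at 8.94, 8.09 and 8.18 FPKM in RNA-seq and 13.6, 14.1 and 17.2 FPKM in RNC-seq (log2 0.82 ± 0.17, adjusted p = 0.0117 in limma), so that it was called higher in both genotypes. Nup35 and Nup37 had the next smallest p in that direction, with log2 changes of 0.46 ± 0.16 and 0.58 ± 0.22, and did not pass. Nup35 was at 58.1, 61.0 and 71.9 FPKM in Igf2bp3-/- RNA-seq and 83.1, 81.5 and 98.5 FPKM in RNC-seq.

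The count in Igf2bp3-/- depended on single libraries. Without both libraries of replicate 1, or without both of replicate 3, no member was called in limma, with 15 and 19 members at an unadjusted p under 0.05, and of all genes 3 and 1 were called. Leaving out RNC-seq replicate 2 alone gave 22 members lower and 4 higher, and without both libraries of replicate 2 the counts were 19 and 2. The calls of Xpo6, Nup98 and Nup153, which were missed with all 3 replicates, were made without RNC-seq replicate 2, with log2 changes of -1.23, -1.16 and -0.97.

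**Figure D2:**
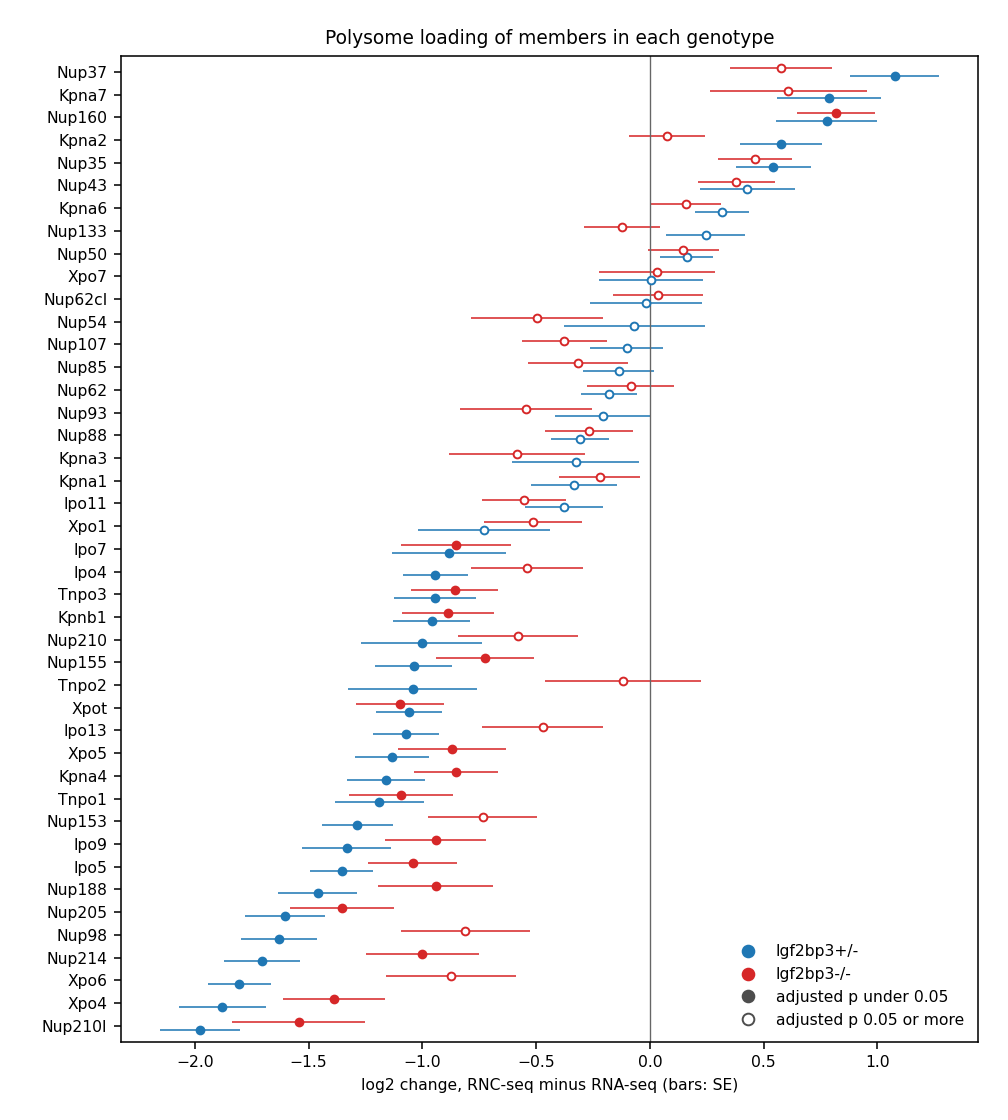
Log2 change from RNA-seq to RNC-seq of the 43 members tested in both genotypes, ordered by the change in Igf2bp3+/-, with Igf2bp3+/- in blue, Igf2bp3-/- in red, bars for the SE and filled points for an adjusted p under 0.05 in limma. Nup210l, Xpo4 and Nup205 are low in both genotypes, and Nup160 is the only member with a filled point to the right of 0 in both.

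Loading of the members followed their coding length, and about as closely the length of the whole mRNA, both taken from the GENCODE M21 annotation. Across 43 members, which are not independent replicates and share the libraries, Spearman's rho between coding length and the log2 change was -0.67 in Igf2bp3+/-, and across 12468 genes with a coding transcript it was -0.55. In Igf2bp3-/- it was -0.59 across 44 members and -0.52 across 12879 genes. With the length of the whole mRNA rho was -0.64 in Igf2bp3+/- and -0.60 in Igf2bp3-/- across the members, and -0.51 and -0.46 across all genes. With the length of the 3′ untranslated region it was -0.14 and -0.18 across the members, and -0.24 and -0.21 across all genes. Of the 27 tested members with a coding length over 2500 bases, 21 were lower and 1 was higher in Igf2bp3+/-, while 67.2% of all 2301 genes of such length were lower. Of the 16 shorter members 1 was lower and 4 were higher, while 22.8% of all 10167 genes up to that length were lower and 18.7% higher. In Igf2bp3-/-, 14 of 28 long members were lower, while 34.7% of all 2376 such genes were. The length limit was chosen after values had been seen. The median log2 change of the long members was -1.06 against -0.98 for all long genes in Igf2bp3+/-, and -0.83 against -0.61 in Igf2bp3-/-. Nup160, with a coding length of 4206 bases, departed from the rest, since 2.09% of all long genes were higher on polysomes in Igf2bp3+/- and 1.18% in Igf2bp3-/-.

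**Figure D3:**
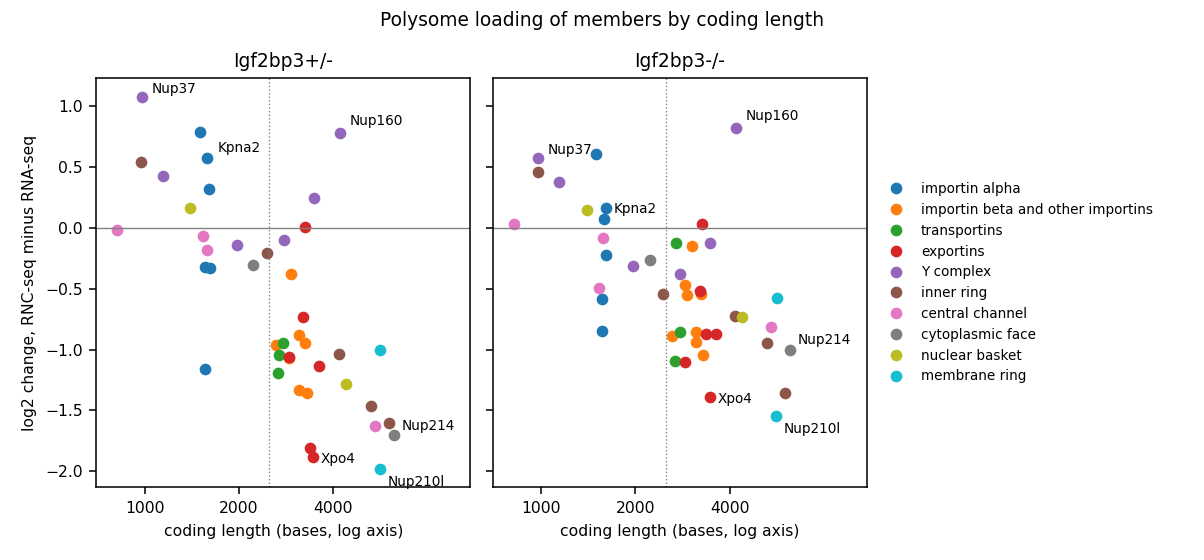
Log2 change from RNA-seq to RNC-seq of each member against its coding length in bases on a log axis, in Igf2bp3+/- (left, 43 members) and Igf2bp3-/- (right, 44 members), coloured by role, with a dotted line at 2500 bases. Most members to the right of that line lie below 0, and Nup160 lies at 0.78 and 0.82.

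Transport genes outside the naming rule were read from a list of 38, with Ran and its regulators, export factors for mRNA and nucleoporins with other names. In Igf2bp3+/-, 18 of 35 tested were lower on polysomes and 7 were higher, and in Igf2bp3-/- the counts were 12 and 2, against the 25.1% lower and 18.6% higher, and the 10.9% and 10.1%, of all genes. Without Igf2bp3-/- replicate 1, or without replicate 3, none of the 35 was called there in limma, with 13 at an unadjusted p under 0.05 each time. The largest changes in Igf2bp3+/- were those of Phax, an adaptor for snRNA export, at a log2 change of -2.63, Ranbp2, the main protein of the cytoplasmic filaments, at -2.35, Tpr, the main protein of the nuclear basket, at -2.03, Ahctf1, which seeds the Y complex on chromatin, at -1.91, and Pom121, a membrane anchor of the pore, at -1.85. The largest in Igf2bp3-/- were those of Ranbp2 (-1.85), Tpr (-1.52), Phax (-1.47), Mcm3ap (-1.36) and Nxf2 (-1.28). Rasl2-9, a testis relative of Ran, was higher in both genotypes, at log2 changes of 1.31 and 0.75, and it is named with those values known.

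The genotype comparison in total RNA asks whether loss of IGF2BP3 changes the level of a member. None of the 44 members passed in limma, with 3 at an unadjusted p under 0.05 and a positive change and 2 with a negative one. Of all 20352 genes, 0.256% passed and 15.7% had an unadjusted p under 0.05. The genotypes did not overlap in 5 members, namely Kpna2, Kpna6 and Nup62cl, higher in Igf2bp3-/-, and Nup153 and Xpo6, lower, while 22.7% of all genes did not overlap. The median log2 change was -0.01 for the members and 0.05 for all genes. In these bulk samples, fewer cells of a type and less RNA per cell cannot be told apart.

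The members with the smallest p, none of which passed, were of both kinds. Nup62cl was at 1.3, 1.8 and 1.36 FPKM in Igf2bp3+/- and 2.15, 2.08 and 2.38 FPKM in Igf2bp3-/- RNA-seq (log2 0.55 ± 0.17, adjusted p = 0.219 in limma). Kpna2, whose values are given above, had a log2 change of 0.32 ± 0.10 (adjusted p = 0.227 in limma). Kpna6 was at 119, 136 and 145 FPKM in Igf2bp3-/- (log2 0.22 ± 0.09, adjusted p = 0.307 in limma). All 3 are short. Nup153 had a log2 change of -0.40 ± 0.14 (adjusted p = 0.243 in limma), Xpo6 one of -0.33 ± 0.13 (adjusted p = 0.289 in limma) and Xpo4, whose genotypes overlapped, one of -0.28 ± 0.16 (adjusted p = 0.445 in limma). The markers of Leydig cells moved with the genotype, all 7 being higher in Igf2bp3-/- RNA-seq and 4 of them called. Of the Sertoli markers 5 of 6 tested were higher and 1 was called, with Clu at 2.74 to 3.63 FPKM in Igf2bp3+/- and 6.63 to 6.79 FPKM in Igf2bp3-/-, while the defining markers Sox9 and Wt1 stayed at or below 0.185 FPKM. All 6 macrophage and all 4 blood markers were higher too, with 1 called in each list. All 6 round spermatid markers and 5 of 6 spermatocyte markers were higher. The same held for 2 of 5 tested spermatogonia markers, 1 of 7 elongating spermatid markers and 1 of 4 tested peritubular markers. None of these germ cell and peritubular markers was called. The part of these cells in the members' values was not tested.

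The sign of the change went with coding length here too. In RNA-seq 14 of 16 members with a coding length up to 2500 bases had a positive log2 change, whereas 21 of 28 longer members had a negative one, with medians of 0.14 and -0.06. Spearman's rho with coding length was -0.71 across 44 members and -0.34 across 13673 genes, as a description with no test. With the length of the whole mRNA it was -0.66 and -0.35. Over all genes the medians of the short and the long genes were 0.09 and -0.10. Single RNA-seq libraries differed by as much from the other libraries of their own genotype. In Igf2bp3-/-, the median log2 distance of the short members was 0.17 in replicate 3 and -0.17 in replicate 1. In Igf2bp3+/- replicate 1 that of the long members was -0.20. Whether the split by length reflects genotype or single libraries was not tested. Rescaled without CT010467.1, 10 of 16 short members were positive and 26 of 28 long members negative, and the median of all genes moved from 0.05 to -0.07.

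On polysomes, none of the 44 members passed between genotypes in limma, with 1 member at an unadjusted p under 0.05. Of all 19051 genes, 0.115% passed and 6.48% had an unadjusted p under 0.05. Among the latter, 1022 genes had a positive change and 213 a negative one. The genotypes did not overlap in 5 members (11.4%), all higher in Igf2bp3-/- (Ipo8, Nup62cl, Nup98, Tnpo2 and Xpo6), while 11.3% of all genes did not overlap. Positive changes prevailed over all genes too, in 12439 of 19051, beside 31 of the 44 members. The median log2 change was 0.15 for the members and 0.13 for all genes. Rescaled without CT010467.1 the medians were 0.03 and 0.02.

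Tnpo2, a close relative of Tnpo1, had the smallest p, at 2.0, 1.1 and 1.88 FPKM in Igf2bp3+/- and 2.33, 4.91 and 2.46 FPKM in Igf2bp3-/- RNC-seq (log2 0.88 ± 0.35, adjusted p = 0.744 in limma). It shares 10.6% of its exonic bases with a gene on the opposite strand, and strand use in the quantification is not stated. Its RNA-seq values were 2.52, 3.74 and 4.24 FPKM in Igf2bp3+/- and 3.71, 4.5 and 2.18 FPKM in Igf2bp3-/-. Nup62cl was at 1.38, 1.16 and 1.92 FPKM in Igf2bp3+/- and 2.42, 2.03 and 2.33 FPKM in Igf2bp3-/- RNC-seq (log2 0.60 ± 0.28). Nup98 was at 21.4, 43.5 and 21 FPKM in Igf2bp3-/- (log2 0.62 ± 0.29), against at most 19.7 FPKM in Igf2bp3+/-. Both had an adjusted p of 0.767 in limma. In the negative direction the smallest p were those of Nup107, at 5.51, 7.55 and 6.59 FPKM in Igf2bp3-/- RNC-seq (log2 -0.27 ± 0.23), Kpna7, at 1.53, 0.567 and 0.928 FPKM (log2 -0.33 ± 0.35), and Nup93, at 1.94, 1.53 and 1.28 FPKM in Igf2bp3+/- and 2.01, 1.03 and 0.993 FPKM in Igf2bp3-/- (log2 -0.27 ± 0.33). Nup93 was at 1.88, 1.81 and 1.77 FPKM in Igf2bp3+/- and 1.79, 1.75 and 2.22 FPKM in Igf2bp3-/- RNA-seq. None of these passed, and the genotypes overlapped in each. All 7 Leydig cell markers were higher in Igf2bp3-/- RNC-seq too, 1 of them called, and their part was not tested.

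**Figure D4:**
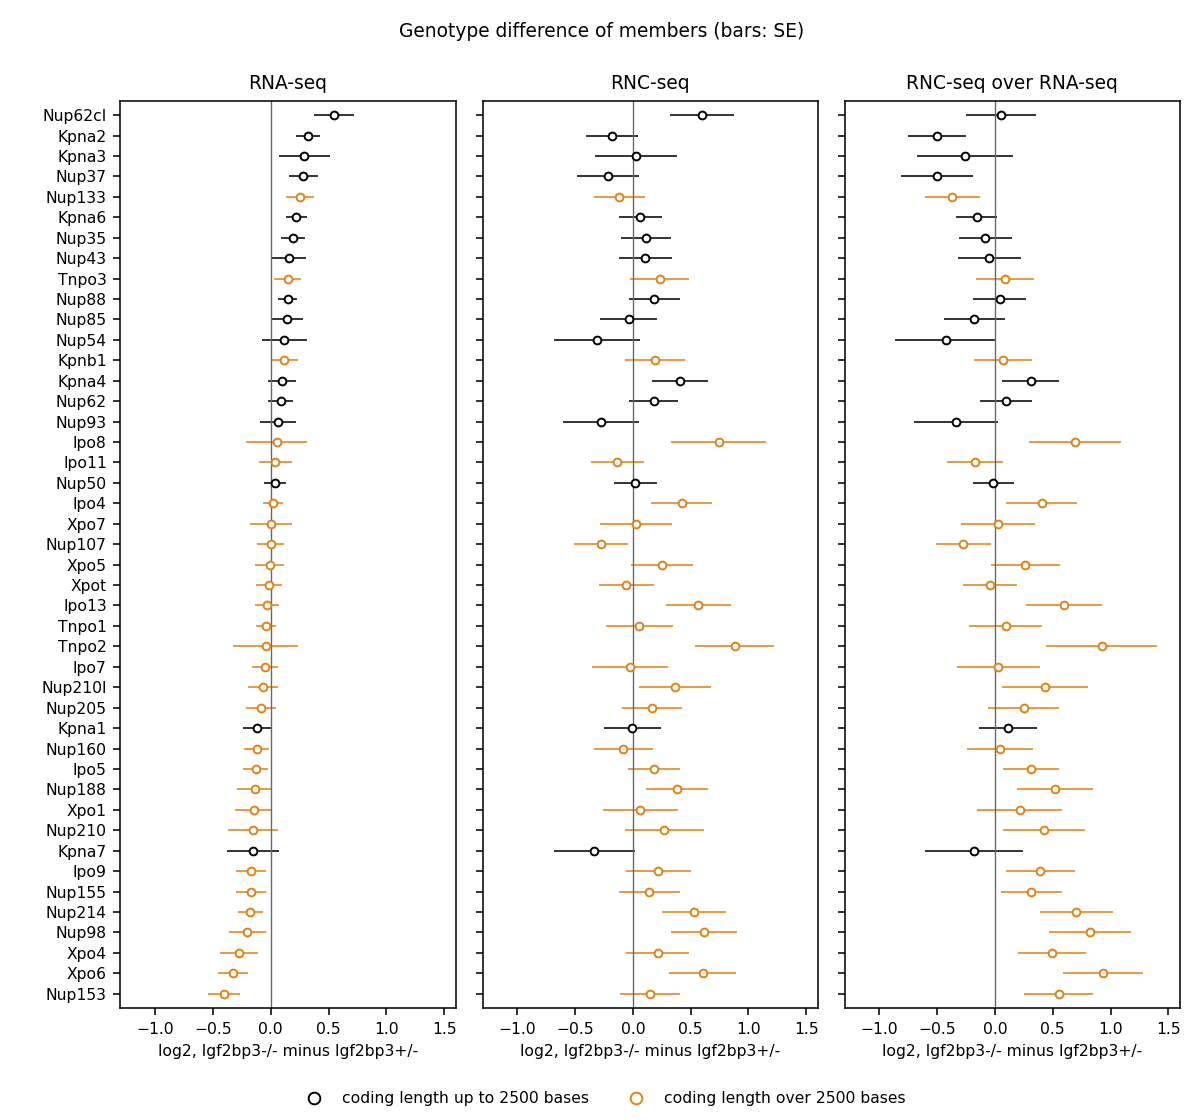
Log2 difference between Igf2bp3-/- and Igf2bp3+/- of each of the 44 members in RNA-seq, in RNC-seq and in the ratio of RNC-seq to RNA-seq, with bars for the SE and colour for coding length. No member passed in any of the 3 panels, and the long members (orange) lie mostly below 0 in RNA-seq, 21 of 28, and mostly above 0 in the ratio, 24 of 28.

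Igf2bp3-/- RNC-seq replicate 2 was the highest of the 6 RNC-seq libraries in 23 of the 44 members and in 19 of the 28 long ones. Its median log2 distance from the mean of the other Igf2bp3-/- RNC-seq libraries was 0.52 over the long members, which lay above it in 25 of 28, and -0.06 over the short ones. Over all 2361 long genes the distance was 0.46, so that the members moved as other long genes did. Xpo6 was at 27.4, 59.4 and 28.7 FPKM in Igf2bp3-/- RNC-seq, with replicate 2 far above the others. Without that library the median log2 difference of the members on polysomes was 0.02, and 15 of 28 long members were positive instead of 22.

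**Figure D5:**
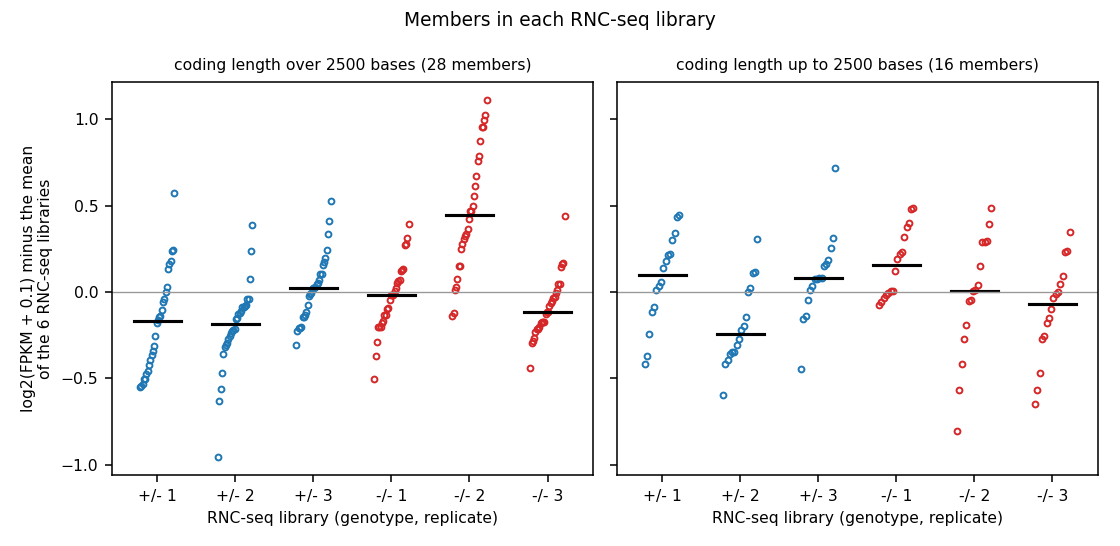
Log2(FPKM + 0.1) of each member minus its mean over the 6 RNC-seq libraries, by library, for the 28 long members (left) and the 16 short members (right), with black lines for the medians, blue for Igf2bp3+/- and red for Igf2bp3-/-. The long members of Igf2bp3-/- replicate 2 lie above those of every other library by their median, and the short members do not.

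Translational efficiency (TE), the ratio of RNC-seq to RNA-seq, was compared between genotypes by an interaction term fitted to all 12 libraries, which are the libraries of the comparisons above. None of the 44 members passed in limma, with 3 at an unadjusted p under 0.05, all positive. Of all 18414 genes, 0.00543% passed, which is 1 gene, and 7.13% had an unadjusted p under 0.05. Among the latter, 1021 genes had a positive difference and 291 a negative one. The median log2 difference was 0.09 for the members and 0.06 for all genes.

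The smallest p were those of Xpo6 (log2 0.93 ± 0.35, adjusted p = 0.686 in limma), Nup98 (0.82 ± 0.36, 0.689) and Nup214 (0.70 ± 0.32, 0.692). The ratio of group means was 0.286 in Igf2bp3+/- and 0.578 in Igf2bp3-/- for Xpo6, 0.321 and 0.599 for Nup98, and 0.307 and 0.523 for Nup214. Without Igf2bp3-/- RNC-seq replicate 2 the differences were 0.57, 0.48 and 0.40. In the negative direction came Kpna2 (log2 -0.50 ± 0.25, adjusted p = 0.712 in limma), Nup37 (-0.50 ± 0.31, 0.731) and Nup133 (-0.37 ± 0.24, 0.741). Kpna2 was at 369, 304 and 364 FPKM in Igf2bp3-/- RNC-seq, and its ratio of means was 1.52 in Igf2bp3+/- and 1.05 in Igf2bp3-/-. Nup37 was at 19.2, 23.9 and 23.9 FPKM in Igf2bp3-/- RNA-seq and 35.9, 24.1 and 42.1 FPKM in RNC-seq. Nup133 was at 17.5, 20.8 and 19.5 FPKM in Igf2bp3+/- and 19.8, 24.6 and 24.6 FPKM in Igf2bp3-/- RNA-seq, and at 25.8, 17.7 and 25.9 FPKM and 21.2, 19.9 and 22.1 FPKM in RNC-seq, and 10.4% of its exonic bases overlap genes on the opposite strand.

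Long and short members again differed in sign. Of 28 long members 24 had a positive TE difference, with a median of 0.31, and of 16 short members 11 had a negative one, with a median of -0.12. Spearman's rho with the length of the whole mRNA was 0.55 across 44 members and 0.32 across 12806 genes. With coding length rho was 0.62 and 0.31, as a description with no test. Without Igf2bp3-/- RNC-seq replicate 2, rho was 0.46 across the members, 19 of 28 long members were positive, and their median was 0.12. With that library included, the medians over all genes were 0.34 for long and 0.04 for short genes, beside 0.31 and -0.12 for the members. With each library centred on its median, 18 of 28 long members were positive and 15 of 16 short members negative, and the median of all genes moved from 0.06 to -0.07.

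The Igf2bp3-/- RNC-seq values of 9 further members described above overlapped with those of Igf2bp3+/-. Kpnb1 was at 2.54, 2.91 and 2.03 FPKM, Xpo1 at 1.29, 1.55 and 1.43 FPKM, Kpna1 at 4.05, 3.93 and 4.21 FPKM and Kpna3 at 0.968, 1.11 and 0.518 FPKM. Kpna6 was at 142, 149.5 and 155 FPKM, Kpna4 at 5.93, 5.81 and 4.74 FPKM, Nup62 at 78.8, 82.0 and 56.3 FPKM, Nup153 at 10.5, 18.9 and 12.5 FPKM and Nup210 at 0.581, 0.611 and 0.39 FPKM. None of these differences passed in limma. Ipo8, whose genotypes did not overlap, was at 0.102, 0.0846 and 0.106 FPKM in Igf2bp3+/- and 0.236, 0.209 and 0.247 FPKM in Igf2bp3-/- RNC-seq, close to the limit of 0.1 FPKM, and did not pass either.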

How the data were processed

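RNA-seq and RNC-seq were measured in 3 replicates per genotype. The authors deposited 1 table of FPKM per gene symbol and library, made by the study's methods with Trim Galore, Hisat2 on GRCm38 and StringTie 2.1.7 (Trim Galore 0.6.6 in the submitters' processing notes). The annotation release and strand use are not given in the sources used here, and labels and methods name different library preparations. Replicates were not pooled. The table holds no counts, so that depth and counting intervals are unknown.

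Of 28668 symbols, 25 had become dates and were left out. All 44 members matched GENCODE M21. log2(FPKM + 0.1) was fitted with limma 3.58.1 in R 4.3.3, with an intensity trend, two-sided, Benjamini-Hochberg adjustment over all genes and a limit of 0.05, within each genotype for loading, within each assay for genotype, and over 12 libraries for the interaction. Genes needed a mean FPKM over 0.1, in both assays for loading and TE. A fold on this scale understates the change of low genes. The fits were tested on simulated data. Copies were defined by BLAST 2.17.0 at 95% identity over 50% of a transcript, and exon overlaps are given from 1%, which 12 members had. Named members were, in each comparison, up to 8 called per direction with the largest change, or the 3 smallest p where fewer than 3 passed, besides a fixed set. Protein sequences were not used here. The members and lists were chosen with earlier results of these data known. By the methods cells came from each mouse and replicates are biological, and the labels do not tie a number to an animal. Columns headed WT were taken as Igf2bp3+/-, which the sample titles give for those names. Alternatives covered pseudocount, filter, scaling, weights, trend, a replicate block and leaving out replicates. No batch is given in the labels.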

Additional observations from a re-analysis of the deposited data

How the results depend on the processing

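The median log2 change of loading in Igf2bp3+/- was -0.474 with a pseudocount of 1, -0.724 with each library centred on its median, -1.1 rescaled without CT010467.1 and -0.722 with library weights, and it ranged from -1.01 to -0.665 when a replicate or a single RNC-seq library was left out. In Igf2bp3-/- the median was -0.755 when rescaled. The count of members called there was 8 with no filter on low FPKM, and it ranged from 0 (without replicate 1, or without replicate 3) to 26 (without RNC-seq replicate 2). The median genotype difference in RNA-seq was -0.0741 with quantile normalization and -0.127 when rescaled. The cause of these shifts was not tested. No member was called between genotypes under any alternative run in RNA-seq, RNC-seq or TE. The single RNC-seq libraries left out of loading and TE were chosen after the data were seen.

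Of 743 values of named members under alternatives, 686 kept direction and side of the limit, 51 lost the call, 6 gained it and 0 reversed. In Igf2bp3+/-, Nup37 and the 8 members with the lowest loading kept their calls under all 17 alternatives run for them. Under centring on library medians, the median TE difference of the members was -0.039, and not 0.09.

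Replicate numbers are shared by the groups. By the methods input and polysomes come from one extract, but the labels do not say that a number marks it. Within a genotype, RNA-seq and RNC-seq libraries of the same number correlated between -0.104 and 0.205 in their deviations from the group means. Between genotypes, which cannot share an extract, libraries of the same number and assay correlated between -0.083 and 0.241. The fits reported use no block. With a replicate block, 27 members were called in Igf2bp3+/- and 19 in Igf2bp3-/- loading, and 0 between genotypes.

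Without counts, the depth behind low members such as Ipo8 is unknown. With 3 libraries per group, a difference that did not pass is not shown to be absent.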
